A study of Mus musculus with 22 samples.

Results

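The 10 genes described here make, lengthen and desaturate fatty acids, or control that pathway. They were chosen by name, with earlier results of these data known: Srebf1, Acly, Acaca, Fasn, Elovl5, Elovl6, Scd1, Scd2, Fads1 and Fads2. All 10 were found among the 55414 genes of the count table, and all 10 had enough counts to be among the 17554 genes tested. Fatty acids are built in the cytosol from citrate-derived acetyl-CoA. ATP citrate lyase (Acly) releases acetyl-CoA, acetyl-CoA carboxylase (Acaca) turns it into malonyl-CoA, and fatty acid synthase (Fasn) joins these units into palmitate. Elongases lengthen the chain, stearoyl-CoA desaturases (Scd1, Scd2) place the first double bond, and the fatty acid desaturases Fads1 and Fads2 act in the making of long polyunsaturated fatty acids. The transcription factor SREBP1, the product of Srebf1, is known to activate many of these genes, while its relative SREBP2 acts mainly on cholesterol synthesis. In skin the same enzymes are best known from sebaceous glands and fat, where Scd1 is abundant.

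RNA was measured in fibroblasts sorted from mouse skin in a study of skin stretched by an implant. All mice were operated on. The groups labelled EXP received an expander hydrogel beneath the skin near the neck, and those labelled CTRL received the same incision and tunnel but no expander. Cells that carried CD31, CD45, CD117 or EpCAM were removed in the sort, and living CD34+ PDGFRα+ cells were kept. Cells were taken 1, 2 and 4 days after surgery, with 4 CTRL against 5 EXP libraries at the first time, 3 of each at the next and 4 against 3 at the last, 22 in all. Strain, age and sex are not given in the sources used here, and every group shares the operation, so no unoperated skin enters the comparison. The labels do not say whether each library came from a separate mouse. Each p-value therefore sets a difference against the variation between these libraries, which may not be that between mice.

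Libraries held 21461294 to 30210204 counts, and 3 counts, the smallest level taken as detected, corresponded to 0.0993 to 0.140 counts per-million (CPM). The fibroblast genes Pdgfra, Cd34, Col1a1, Col1a2, Dcn and Lum were abundant in every library, with the lowest value, 185 CPM, for Pdgfra. Apart from the groups, 192 genes that vary with Rnf10 split the libraries into 7 with high and 15 with low levels. From day 1, 3 CTRL and 2 EXP libraries lay on the high side, and from day 4 only 2 CTRL libraries did. The labels record no batch that matches this split. Adipocyte markers also set 3 EXP libraries apart, replicate 1 of day 2 and replicates 2 and 3 of day 4, and replicate 2 of day 1 EXP held the most sebocyte marker counts. Results that rest on these libraries are given with and without them.

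The sequence before the start site is shown for 3 of the 4 genes that were higher in EXP on every day, because genes of this pathway are known to be switched on through promoter elements bound by SREBPs together with the factors NF-Y (CCAAT box) and Sp1 (GC box). RefSeq promoter entries of build GRCm38.p6 were found for 7 of the 10 genes, in 9 entries of 300 bases, 250 before and 50 after the start. No entry matched Scd1, Scd2 or Fads1. The entry of Acaca, the other gene higher on every day, held 0 matches to any of the 4 motifs searched and is not printed. The lines below give the 250 bases before the start of Fads2 (chr19:10101504-10101753, minus strand), Acly (chr11:100528001-100528250, minus strand) and Fasn (chr11:120824548-120824797, minus strand), 5′ to 3′ on the gene's strand. Capitals mark CCAAT or GGGCGG on either strand.
Fads2: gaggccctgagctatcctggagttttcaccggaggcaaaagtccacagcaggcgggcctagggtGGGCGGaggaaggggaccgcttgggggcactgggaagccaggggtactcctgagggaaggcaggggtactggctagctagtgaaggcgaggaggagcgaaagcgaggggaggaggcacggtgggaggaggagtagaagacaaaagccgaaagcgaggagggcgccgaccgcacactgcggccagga
Acly: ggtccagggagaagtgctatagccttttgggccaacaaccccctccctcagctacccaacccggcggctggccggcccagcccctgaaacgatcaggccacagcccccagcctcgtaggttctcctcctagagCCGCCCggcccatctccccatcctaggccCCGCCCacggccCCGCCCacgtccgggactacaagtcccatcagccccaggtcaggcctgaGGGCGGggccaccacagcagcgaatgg
Fasn: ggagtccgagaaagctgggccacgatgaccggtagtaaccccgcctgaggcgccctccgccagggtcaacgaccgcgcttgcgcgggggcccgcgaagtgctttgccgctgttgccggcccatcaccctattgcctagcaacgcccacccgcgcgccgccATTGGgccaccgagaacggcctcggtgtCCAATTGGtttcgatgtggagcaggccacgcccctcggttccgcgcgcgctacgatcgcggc
The Acly stretch held 4 matches to GGGCGG and 0 to CCAAT. That of Fasn held 3 matches to CCAAT, 2 of them overlapping on opposite strands, and 0 to GGGCGG. That of Fads2 held 1 match to GGGCGG and 0 to CCAAT. Over the 300-base entries and both strands, CCAAT stood in 5 of the 9 entries of these genes (55.6%) against 37.4% of all 32851. GGGCGG stood in 4 of 9 (44.4%) against 35.7%. The 9 entries stand for 7 genes, since Srebf1, called on no day, has several entries, which hold matches to both motifs. The sterol regulatory element TCACNCCAC was found in 0 of the 9 entries and in 1.24% of all. With so rare a match, 0 of 9 does not show that these promoters lack such an element. The E-box CACGTG, another element known to bind SREBP1, was found in 1 of 9 (11.1%), that of Elovl5, against 7.15% of all. Among 17 entries of cholesterol synthesis and uptake genes, 14 (82.4%) held CCAAT and 14 held GGGCGG. TCACNCCAC stood in 1 of the 17 (5.88%) and CACGTG in 3 (17.6%). These are matches of letters in short windows and say nothing on binding.

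EXP fibroblasts held more RNA of Acly, Acaca, Fasn and Fads2 than CTRL fibroblasts on all 3 days, while Srebf1, Elovl5 and Scd1 passed the test on no day. Levels are CPM scaled by TMM, differences are log2 fold changes of EXP over CTRL with their standard error (SE), and a gene was called at a Benjamini-Hochberg adjusted p under 0.05 in edgeR's quasi-likelihood F-test over all tested genes. On day 1, 5 of the 10 genes were called higher and 1, Scd2, lower, where 28.6% of all tested genes were called, 13.9% higher and 14.7% lower. On day 2, 6 were called higher and 0 lower, against 13.4% of all genes, 7.72% and 5.71% by direction. Day 4 gave 6 higher and 0 lower, against 22.5%, with 12.8% and 9.66% by direction. With libraries scaled by their totals, which moves the median of all genes by 0.19, 0.47 and 0.33, the calls were 5 higher and 0 lower, 7 higher and 0 lower, and 8 higher and 0 lower. That scaling called 5129, 4632 and 5289 of all 17554 tested genes, where TMM called 5017, 2359 and 3943. The median log2 fold change of the 10 genes was 0.46, 0.70 and 0.80 on days 1, 2 and 4, and that of all tested genes 0.02, 0.02 and 0.03. The 4 genes higher on all 3 days compare with 2.5% of all tested genes, and 0 of the 10 were lower on all 3 days, against 1.78%. EXP and CTRL libraries did not overlap for 4, 9 and 6 of the genes on days 1, 2 and 4, against 23.9%, 39.3% and 25.5% of all genes. EXP was the higher arm for 4, 8 and 6 of these, against 11.7%, 20.9% and 13.8%. Since the genes were chosen with earlier results of these data known, these counts are a description beside all genes. The libraries are bulk samples, in which fewer cells of a type and less RNA per cell cannot be told apart.

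**Figure D1:**
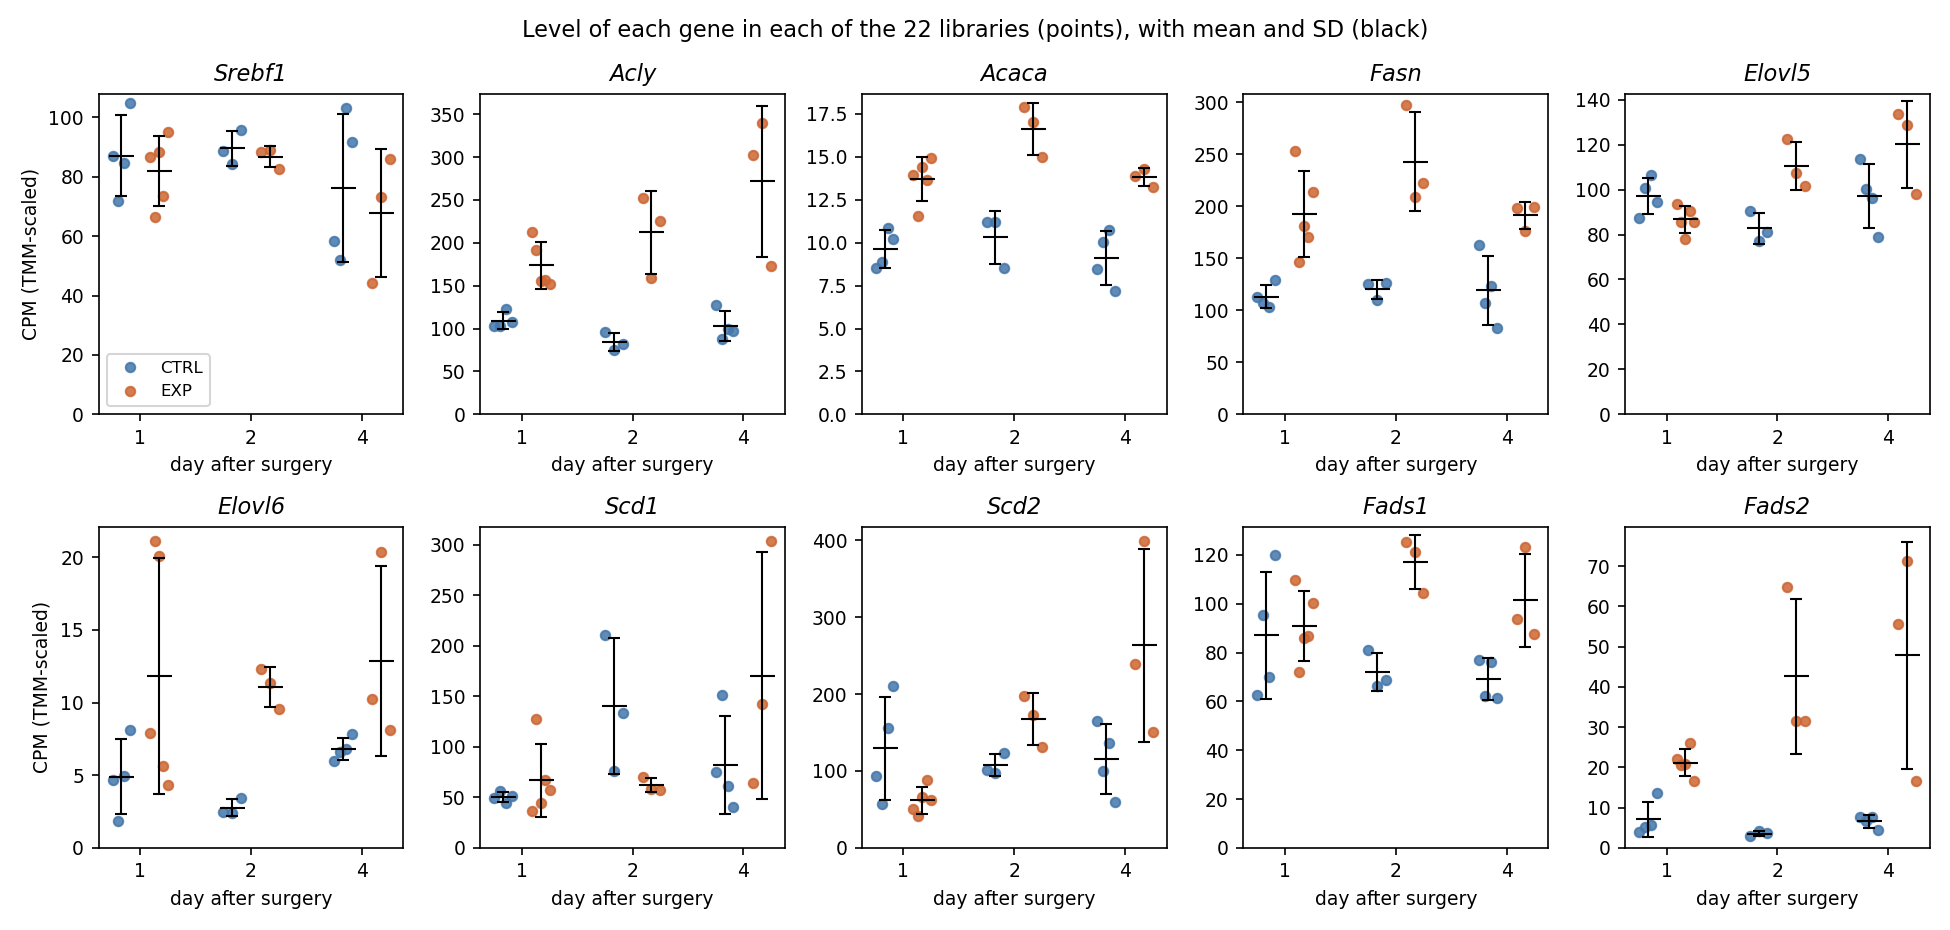
Level of each of the 10 genes in CPM (vertical axis, TMM-scaled) by day after surgery. Each point is 1 library, blue for CTRL and orange for EXP, and black bars give the mean and SD. Fads2 and Acly show EXP points above all CTRL points of the same day on each day, while Srebf1 points are mixed.

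**Figure D2:**
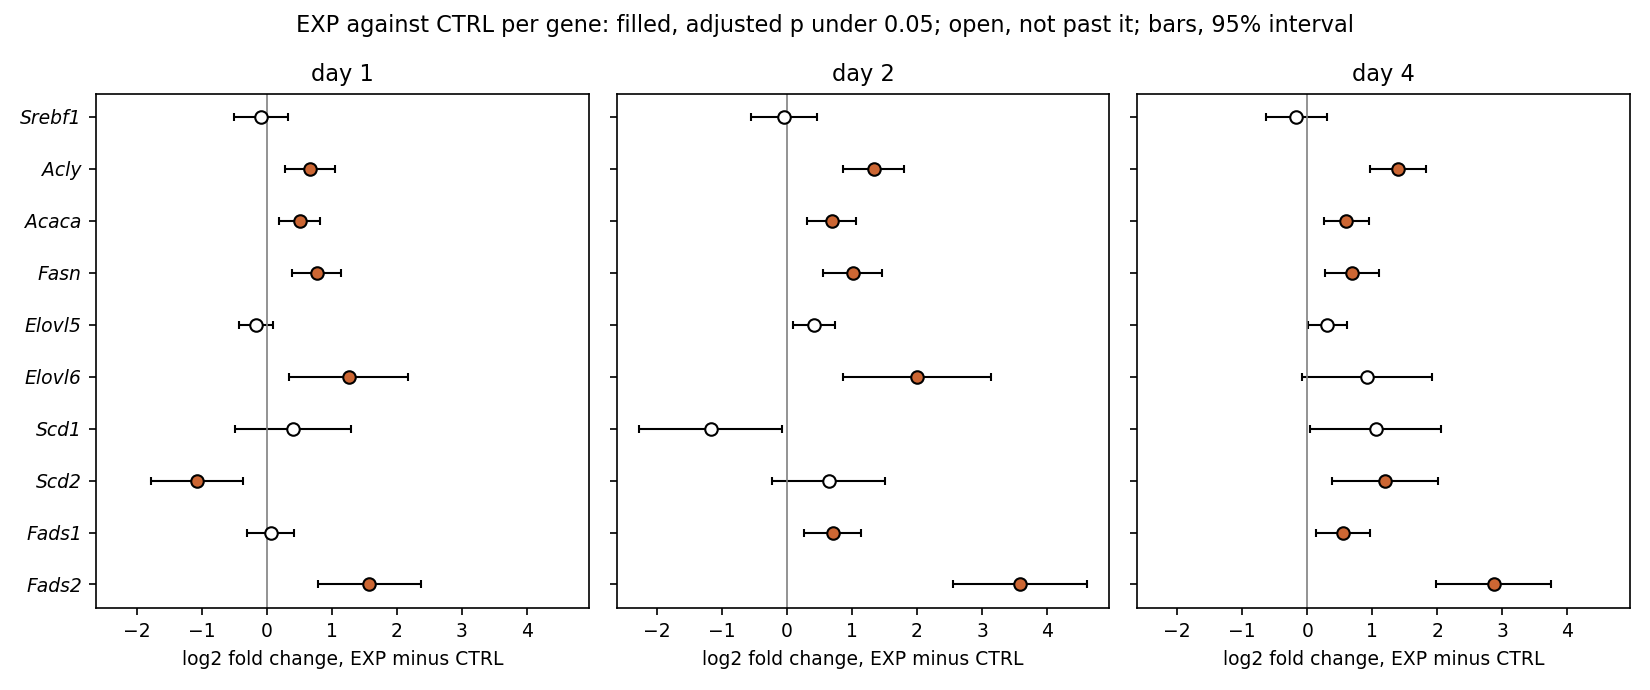
Log2 fold change of EXP over CTRL for each gene on days 1, 2 and 4, with its 95% interval. Filled points have an adjusted p under 0.05. Fads2 lies furthest to the right on each day, and Scd2 is the filled point left of 0 on day 1.

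Srebf1 encodes the precursors of SREBP1a and SREBP1c, which are held in the endoplasmic reticulum until they are cut, so that its RNA level does not measure its activity. Its level did not pass the test on any day. It was 87.0, 71.8, 84.8 and 105 CPM in the CTRL libraries of day 1 and 86.7, 66.4, 88.2, 73.5 and 95.1 in EXP (log2 fold change -0.09, SE 0.20, adjusted p 0.776). On day 2 the values were 88.7, 84.3 and 95.9 in CTRL and 88.3, 89.1 and 82.7 in EXP (log2 fold change -0.05, SE 0.24, adjusted p 0.924). On day 4 they were 58.4, 52.0, 103 and 91.7 in CTRL and 44.2, 73.2 and 86.2 in EXP (log2 fold change -0.17, SE 0.23, adjusted p 0.630). The arms overlapped on every day. In this fit the 95% intervals of the log2 fold change were -0.50 to 0.32, -0.55 to 0.46 and -0.64 to 0.30, within 1 log2 unit in either direction. Over 13 other settings the log2 fold change ran from -0.14 to 0.10, -0.31 to 0.43 and -0.81 to 0.29 in day order. With libraries scaled by their totals the signs turned, and the values were 0.10, 0.43 and 0.11 and again did not pass. Srebf1 shares 109 exon bases with Rai1 on the opposite strand, and whether counting used the strand is not given in the sources used here.

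The enzymes that build palmitate were higher in EXP on each day. Acly, which makes the acetyl-CoA, was at 103, 103, 123 and 108 CPM in CTRL and 213, 191, 156, 157 and 152 in EXP on day 1. Day 2 gave 96.0, 75.4 and 81.6 in CTRL and 252, 159 and 225 in EXP, and day 4 128, 87.6, 99.5 and 97.5 in CTRL and 303, 340.3 and 173 in EXP. Every EXP library lay above every CTRL library of its day. The log2 fold changes were 0.67, 1.33 and 1.40 in day order, which is 1.59-fold, 2.52-fold and 2.64-fold, with SEs of 0.19, 0.23 and 0.21 and adjusted p-values of 0.0101, 8.81e-04 and 3.02e-04 in edgeR's test. The lowest day 4 EXP value, 173 CPM, came from replicate 3, the library with most adipocyte marker counts.

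Acaca, the carboxylase that commits acetyl-CoA to fatty acid synthesis, was less abundant and changed less. Day 1 values were 8.53, 8.85, 10.9 and 10.2 CPM in CTRL and 14.0, 11.5, 14.4, 13.7 and 14.9 in EXP. Day 2 values were 11.2, 11.2 and 8.53 in CTRL and 17.9, 17.0 and 15.0 in EXP, and day 4 values 8.46, 10.03, 10.7 and 7.18 in CTRL and 13.9, 14.3 and 13.2 in EXP. The arms did not overlap on any day. Its log2 fold changes were 0.51, 0.69 and 0.60 (SEs of 0.15, 0.18 and 0.17), with adjusted p-values of 0.0146, 0.0159 and 0.0157. The call was lost in 1 of 9, 3 of 6 and 3 of 7 fits that each left out a library, with log2 fold changes of 0.46 to 0.57, 0.55 to 0.75 and 0.50 to 0.69. The libraries that ended it were CTRL replicate 1 on day 1 (adjusted p 0.0501), CTRL replicate 3 (0.112) and EXP replicates 1 (0.0793) and 2 (0.0514) on day 2, and CTRL replicate 4 (0.0515) and EXP replicates 1 (0.057) and 2 (0.0789) on day 4. Among 13 other settings of the analysis, the Acaca call was lost in 2 on day 1, 2 on day 2 and 6 on day 4.

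Fasn, the multi-domain enzyme that assembles palmitate, was at 113, 107, 104 and 129 CPM in CTRL and 253, 146, 181, 171 and 214 in EXP on day 1. Day 2 gave 126, 109.9 and 126 in CTRL and 298, 209 and 222 in EXP, and day 4 163, 107, 123 and 83.5 in CTRL and 198, 176 and 199 in EXP. The arms did not overlap on any day, though on day 4 CTRL replicate 1, at 163 CPM, came near the lowest EXP library. Fasn rose by 0.77, 1.01 and 0.68 on the log2 scale (SEs of 0.18, 0.22 and 0.20), with adjusted p-values of 0.00317, 0.00465 and 0.0198. On day 4 the call was lost without CTRL replicate 4 (0.55, adjusted p 0.0638) and without EXP replicate 1 (0.66, adjusted p 0.0705). It was also lost with limma voom, the day 4 libraries alone, the replicate block, the split or adipocyte covariate, the low side of the split, or the 3 libraries with most adipocyte marker counts left out, with values of 0.46 (adipocyte covariate) to 0.71 (those libraries left out).

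Of the elongases, Elovl6 was called on days 1 and 2 and Elovl5 on no day. Elovl6, which extends palmitate and other saturated and monounsaturated chains, was at 4.70, 1.82, 4.97 and 8.12 CPM in CTRL and 7.89, 21.1, 20.1, 5.66 and 4.34 in EXP on day 1. Day 2 gave 2.49, 2.40 and 3.41 in CTRL and 12.3, 11.4 and 9.55 in EXP, and day 4 5.995, 6.60, 6.79 and 7.83 in CTRL and 10.2, 20.3 and 8.10 in EXP. On day 1 the EXP libraries fell into 2 with about 20 CPM and 3 within reach of the CTRL values, and the arms overlapped. On days 2 and 4 they did not. The rise of 1.27 on day 1 passed (SE 0.44, adjusted p 0.0359), as did that of 2.00 a day later (SE 0.55, adjusted p 0.0193). The day 4 difference of 0.92 did not (SE 0.48, adjusted p 0.173). Leaving out single libraries ended the call in 5 of 9 fits on day 1 (CTRL replicates 1 to 3 and EXP replicates 2 and 3, adjusted p 0.073 to 0.11) and 3 of 6 on day 2 (CTRL replicates 1 and 2 and EXP replicate 1, adjusted p 0.0686 to 0.0885). Among 13 other settings of the analysis, the day 1 call was lost in 4 and the day 2 call in 2. Elovl6 shares 34 exon bases with Gm35986 on the opposite strand.

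Elovl5, which acts on polyunsaturated chains, differed little. It was at 87.2, 101, 106 and 94.3 CPM in CTRL and 93.6, 85.6, 78.0, 90.7 and 85.8 in EXP on day 1 (log2 fold change -0.16, SE 0.13, adjusted p 0.357). Day 2 values were 90.4, 76.9 and 81.0 in CTRL and 123, 107 and 102 in EXP, without overlap (log2 fold change 0.42, SE 0.15, adjusted p 0.0778). Day 4 values were 113, 100.3, 96.4 and 78.7 in CTRL and 134, 129 and 98.0 in EXP, with overlap (log2 fold change 0.31, SE 0.14, adjusted p 0.128). None of the 3 differences passed. With library totals they were 0.028 (adjusted p 0.918), 0.90 (adjusted p 0.00302) and 0.66 (adjusted p 0.0116), the later 2 of them called. Within the EXP arm Elovl5 did change over the days (adjusted p 0.0426), from a mean of 86.7 ± 5.93 CPM (SD, n = 5) on day 1 to 110.5 ± 10.8 (SD, n = 3) on day 2 and 120.2 ± 19.4 (SD, n = 3) on day 4. Scd2 and Elovl5 were the 2 genes with such a change, and the count of 2 ran from 1 to 4 when 1 library was left out and was 0 with the replicate block or the adipocyte covariate. Over all genes the calls of such a change went from 2502 to 29 with that block and to 994 with that covariate.

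The stearoyl-CoA desaturases turn stearate and palmitate into oleate and palmitoleate. Scd2 was called on 2 days and Scd1 on none. Scd2, the form known from brain and many other tissues, was at 93.7, 57.3, 156 and 209.9 CPM in CTRL and 50.5, 41.2, 65.7, 88.8 and 61.8 in EXP on day 1. Day 2 gave 101, 97.3 and 124 in CTRL and 198, 172 and 131 in EXP, and day 4 165, 100.3, 136 and 59.2 in CTRL and 239, 399 and 151 in EXP. The EXP libraries lay below 3 of the 4 CTRL libraries on day 1, above all CTRL libraries on day 2, and above 3 of the 4 on day 4, with 1 of the 3 EXP libraries among the CTRL values. Scd2 fell on day 1, with a difference of -1.07 in log2 (SE 0.34, adjusted p 0.0237). A day later its difference of 0.64 did not pass (SE 0.42, adjusted p 0.337), and by day 4 it rose, with 1.19 (SE 0.39, adjusted p 0.0329). It was the only gene of the 10 for which the EXP effect differed between days (joint test, adjusted p 0.0189), a test passed by 8.82% of all genes.

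The day 1 call of Scd2 was lost in 4 of 9 fits that each left out a library, those without CTRL replicates 3 or 4 or EXP replicates 1 or 2, with -0.73 (adjusted p 0.124) without CTRL replicate 4. The day 4 call was lost in 5 of 7, those without CTRL replicates 2, 3 or 4 or EXP replicates 1 or 2, with 0.74 (adjusted p 0.251) without EXP replicate 2. Among 13 other settings of the analysis, the day 1 call was lost in 6 and the day 4 call in 8. With library totals the day 1 value was -0.86 (adjusted p 0.083). Without day 4 EXP replicate 2, or with the replicate number as a block, 0 of the 10 genes passed the joint test. With that block the calls of the joint test over all genes went from 1549 to 401.

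Scd1, the form abundant in fat and sebaceous glands, varied widely between replicates and passed on no day. It was at 49.2, 56.8, 44.2 and 51.5 CPM in CTRL and 36.1, 128, 44.8, 67.6 and 57.6 in EXP on day 1 (log2 fold change 0.40, SE 0.43, adjusted p 0.517). The value of 128 CPM belongs to EXP replicate 2. Its 6 sebocyte markers summed to 16.6 CPM, against at most 5.17 in any other library. Far2 (9.80 CPM), Cidea (3.896) and Awat1 (1.80) were highest there. Awat2, Dgat2l6 and Mc5r were highest in other libraries, at 1.02, 0.157 and 1.45 CPM. Without EXP replicate 2 and CTRL replicate 4, a setting chosen after seeing the data, the day 1 log2 fold change of Scd1 was 0.04 (adjusted p 0.959). Day 2 gave 211, 76.4 and 134 in CTRL and 70.3, 58.6 and 57.7 in EXP, all EXP libraries below all CTRL libraries (log2 fold change -1.17, SE 0.53, adjusted p 0.148). Day 4 gave 75.2, 152, 61.3 and 40.7 in CTRL and 64.3, 143 and 304 in EXP (log2 fold change 1.05, SE 0.48, adjusted p 0.122). The highest of these, 304 CPM, was in EXP replicate 3, which also had the most adipocyte marker counts (525 CPM summed). What part sebocyte or adipocyte RNA had in the Scd1 values was not tested. With library totals the day 4 value of Scd1 was called (1.24, adjusted p 0.0412). On day 2, 2 other settings called the lower value of Scd1, limma voom (-1.23, adjusted p 0.0226) and a fit of the day 2 libraries alone (-1.18, adjusted p 0.0343).

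The longest transcripts of the 2 desaturases in GENCODE M21 share 0 windows of the full length of a read, and 145 of the 4783 windows of 50 bases in Scd1 (3.03%) are also in Scd2, so shorter, trimmed reads could be ambiguous. Scd1 shares 36 of its 4683 full-length windows (0.769%) with Scd3. Expressed per kilobase of the longest transcript, the log2 ratio of Scd1 to Scd2 ran from -0.17 to 1.24 in the CTRL libraries of day 2 and from -1.38 to -1.01 in EXP, without overlap. On day 4 it ran from -0.98 to 0.77 in CTRL and was -1.72, -1.31 and 1.18 in EXP, the last in replicate 3. These ratios are a description and were not tested.

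The polyunsaturated fatty acid desaturases held the largest difference of the set. Fads2, the delta-6 desaturase that takes the first step from linoleic and alpha-linolenic acid, was at 3.87, 5.21, 5.72 and 13.5 CPM in CTRL and 22.1, 20.5, 20.7, 26.0 and 16.6 in EXP on day 1. Day 2 gave 2.84, 4.18 and 3.64 in CTRL and 64.7, 31.5 and 31.5 in EXP, and day 4 7.69, 6.56, 7.63 and 4.41 in CTRL and 55.6, 71.4 and 16.6 in EXP. No EXP library reached down to any CTRL library of its day, the nearest pair being 13.5 and 16.6 CPM on day 1. The log2 fold changes were 1.58, 3.58 and 2.86, which is 2.99-fold, 11.99-fold and 7.28-fold, with SEs of 0.38, 0.49 and 0.43 and adjusted p-values of 0.00408, 1.83e-04 and 3.21e-04. The day 2 effect exceeded that of day 1 by 2.00 (SE 0.59), which did not pass (adjusted p 0.0685), and the joint test over days gave an adjusted p of 0.0666.

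Fads1, the delta-5 desaturase that acts later in the same chain, started from a higher level and moved less. It was at 62.6, 95.3, 69.9 and 120.1 CPM in CTRL and 109.6, 72.2, 86.1, 86.8 and 100.2 in EXP on day 1 (log2 fold change 0.06, SE 0.17, adjusted p 0.814). Day 2 values were 81.0, 66.1 and 68.8 in CTRL and 125, 121 and 104 in EXP, without overlap (log2 fold change 0.70, SE 0.21, adjusted p 0.0334). Day 4 values were 76.8, 62.2, 76.2 and 61.3 in CTRL and 93.6, 123 and 87.4 in EXP, again without overlap (log2 fold change 0.55, SE 0.20, adjusted p 0.0488). Both later rises sat near the threshold. The day 2 call was lost in 6 of 6 and the day 4 call in 6 of 7 fits that each left out a library (all but the one without EXP replicate 3), with log2 fold changes of 0.64 to 0.79 and 0.37 to 0.66. Among 13 other settings of the analysis, the day 2 call was lost in 4 and the day 4 call in 8. Per kilobase, the log2 ratio of Fads2 to Fads1 was -4.06 to -3.02 in CTRL and -2.46 to -1.60 in EXP on day 1, -4.70 to -3.85 and -1.81 to -0.82 on day 2, and -3.66 to -3.11 and -2.26 to -0.62 on day 4. The arms did not overlap in this ratio on any day, a description with no test.

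Among the 10 genes, Acly and Fads2 kept their calls on all 3 days in every setting tried and in every fit that left out a library. Within the split around Rnf10, the high side of day 1 (3 CTRL, 2 EXP) gave calls for Acly (0.87, adjusted p 0.0181), Elovl6 (1.91, adjusted p 0.0308) and Fads2 (2.10, adjusted p 0.00374), and not for Fasn (0.87, adjusted p 0.0505), Acaca (0.42, adjusted p 0.354) or Scd2 (-1.18, adjusted p 0.124). The low side of day 1 held 1 CTRL library and was not compared. Day 2 lay wholly on the low side. The low side of day 4 (2 CTRL, 3 EXP) gave calls for Acly (1.33, adjusted p 0.0194) and Fads2 (2.74, adjusted p 0.0165), and not for Acaca (0.57, adjusted p 0.110), Fasn (0.50, adjusted p 0.178), Scd2 (0.98, adjusted p 0.102) or Fads1 (0.54, adjusted p 0.112).

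Within CTRL, 0 of the 10 genes passed edgeR's test of a change over the days (1 at an unadjusted p under 0.05), where 0.291% of all genes did. DESeq2 and limma voom also called 0 of the 10 there. Within EXP, Scd2 (adjusted p 0.00219) and Elovl5 changed, against 14.3% of all genes. The comparison of the day 2 and day 1 effects called 0 of the 10 (6 at an unadjusted p under 0.05, 2 called by DESeq2 and 0 by limma voom), against 2.97% of all genes (2.48% higher, 0.484% lower), and that of the day 4 and day 2 effects 0 of the 10 (1 at an unadjusted p under 0.05, 0 by DESeq2 and 0 by limma voom). Over all genes the latter comparison called 0 in edgeR's test (1174 at an unadjusted p under 0.05, 35 called by DESeq2 and 16 by limma voom). Group means of Fads2 ran in the order day 4 EXP, day 2 EXP, day 1 EXP, day 1 CTRL, day 4 CTRL and day 2 CTRL. Libraries of day 4 and day 2 EXP overlapped, as did those of day 1 and day 4 CTRL, and the other neighbours in that order did not. Day 4 EXP (16.6 to 71.4 CPM) also overlapped with day 1 EXP (16.6 to 26.0 CPM). The change of Fads2 over days within EXP did not pass edgeR's test (adjusted p 0.0712). For Acly, Acaca and Fasn the 3 EXP means stood above the 3 CTRL means, with overlap among the CTRL libraries of different days.

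Levels can be compared between genes per kilobase of transcript. In CTRL on day 1 the order was Elovl5 (34.9 ± 2.96 CPM per kilobase, SD, n = 4), Fads1 (25.1 ± 7.56), Acly (24.7 ± 2.19), Scd2 (23.7 ± 12.4), Srebf1 (20.3 ± 3.18), Fasn (11.3 ± 1.14), Scd1 (10.4 ± 1.08), Fads2 (2.25 ± 1.38), Acaca (1.01 ± 0.116) and Elovl6 (0.824 ± 0.433). Neighbours from Elovl5 to Srebf1 overlapped in their libraries, as did Fasn with Scd1 and Acaca with Elovl6. In EXP on day 4 Acly led with 61.4 ± 19.9 (SD, n = 3), and Fads2, at 15.2 ± 8.95, overlapped with Srebf1 at 15.8 ± 4.99. Acaca and Elovl6 had the lowest means in each of the 6 groups, and in CTRL on day 2 the libraries of Fads2 overlapped with those of Acaca.

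The lipid-making genes are also active in adipocytes, so adipocyte markers were read beside them. The 9 markers (Adipoq, Plin1, Plin4, Cidec, Cfd, Lep, Retn, Fabp4 and Lipe) summed to 15.4 to 43.3 CPM in CTRL and 9.55 to 22.8 in EXP on day 1. They summed to 11.7 to 16.1 and 15.6 to 144 on day 2, and to 5.08 to 10.01 and 63.7 to 525 on day 4. Of the 8 markers tested, the test called 0 on day 1, 2 as higher on day 2 and 6 on day 4. Plin1, Lep and Retn were at 0 in the median library. Adipoq, which defines the cell type, was at 7.97 CPM in replicate 1 of day 2 EXP and at 0, 17.2 and 49.0 CPM in the 3 EXP libraries of day 4.

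On day 1, when Acly, Acaca, Fasn and Fads2 were higher in EXP, Adipoq was at 0 in 4 of the 5 EXP libraries and at 0.0376 CPM in the other. The 9 markers together summed to 9.55 to 22.8 CPM in EXP and 15.4 to 43.3 in CTRL on that day. Replicate 1 of day 4 EXP had Adipoq at 0 but a sum over the 9 markers of 63.7 CPM, above that of every CTRL library. It held 55.6 CPM of Fads2 and 302.7 of Acly. Replicate 3, with the most Adipoq, held 16.6 of Fads2 and 173 of Acly, the lowest of that group. What part adipocyte RNA had in the levels of Acly, Acaca, Fasn and Fads2 was not tested. Without the 3 libraries with most adipocyte marker counts, a setting chosen after seeing the data that leaves 2 EXP libraries on day 2 and 1 on day 4, Acly (1.18, adjusted p 0.00119, and 1.53, adjusted p 9.80e-05) and Fads2 (3.14, adjusted p 9.49e-05, and 3.05, adjusted p 3.57e-05) were called on days 2 and 4. The lone day 4 library is that replicate 1, with its marker sum of 63.7 CPM, and is assumed to vary like the other groups. The calls left were those of Acly, Fasn (0.84, adjusted p 0.0345) and Fads2 on day 2 and of Acly and Fads2 on day 4. Scd1 on day 4 turned from 1.05 to -0.38 (adjusted p 0.735) in that setting. With the adipocyte marker score as a covariate, Acly (1.42, adjusted p 0.0052) and Fads2 (2.60, adjusted p 0.00587) were the 2 genes called on day 4.

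**Figure D3:**
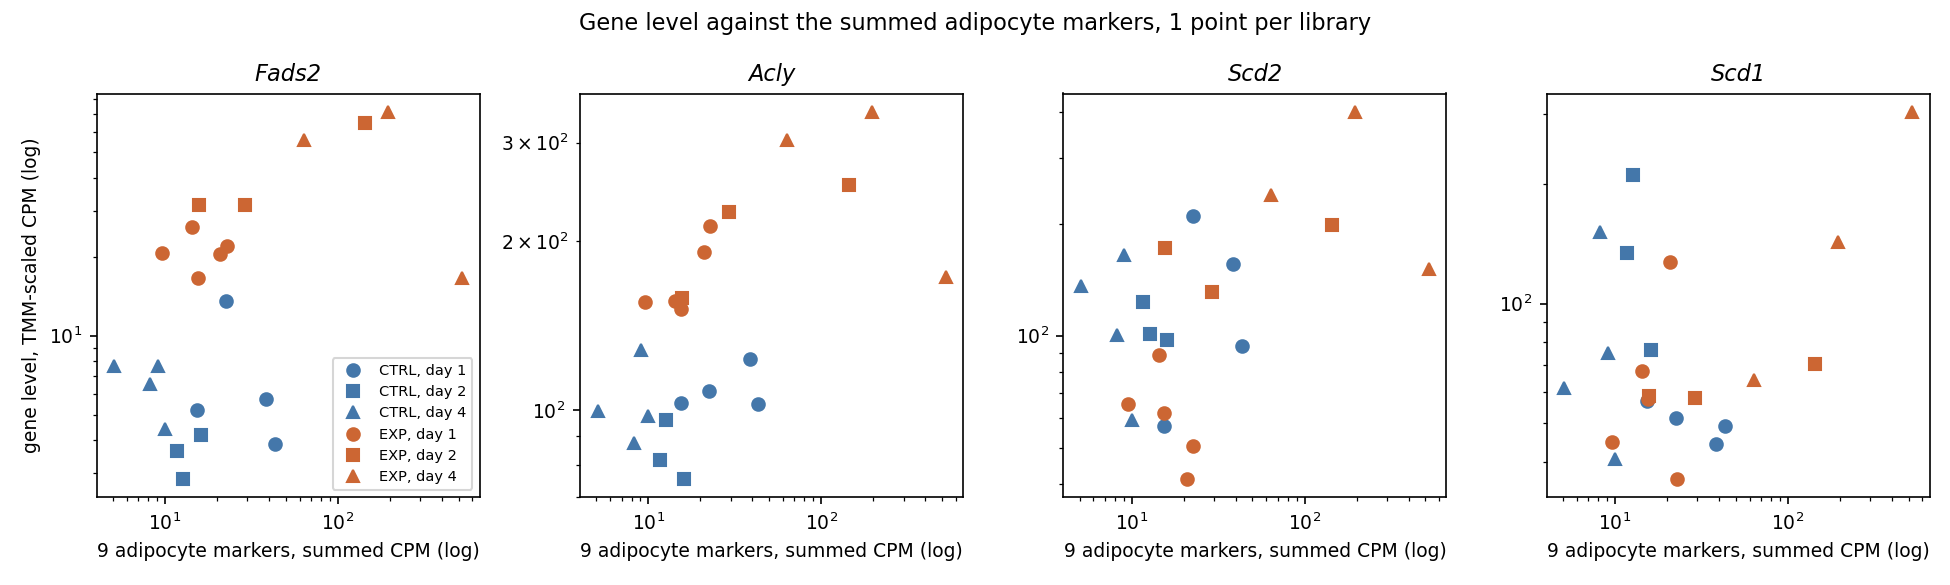
Level of Fads2, Acly, Scd2 and Scd1 (vertical, CPM, log axis) against the summed CPM of the 9 adipocyte markers (horizontal, log axis). Each point is 1 library, with colour for the arm and shape for the day. The library furthest right, day 4 EXP replicate 3 at 525 CPM, has the highest Scd1 and the lowest Fads2 of its group.

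Markers of other skin cell types were also read. Immune markers summed to 42.6 to 132 CPM over all libraries, with Ptprc at most at 0.248 CPM. Of 5 immune markers tested, S100a8 (at most 5.45 CPM in any library) was called higher in EXP on each day, Cd68 on days 1 (1.36) and 2 (1.86) and Cd3e on day 4 (2.69), and Csf1r was called lower on day 1 (-1.12). Keratinocyte markers summed to 2.33 to 43.0 CPM, and of 7 tested Krt10 was called lower on day 1 (-2.54). Endothelial markers summed to 5.31 to 8.23 CPM in CTRL and 0.759 to 8.12 in EXP on day 1. They summed to 0.160 to 0.652 and 2.01 to 8.50 on day 2, and to 3.53 to 7.89 and 20.8 to 52.8 on day 4. Of 3 tested, 0 were called on day 1, and Kdr was called higher on days 2 and 4. Pecam1 and Tek were called on no day, though Tek alone reached 45.8 CPM in replicate 2 of day 4 EXP. Pericyte and smooth muscle markers summed to 5.59 to 13.4 CPM in CTRL and 21.8 to 47.1 in EXP on day 2. On day 4 they summed to 13.6 to 20.8 and 25.6 to 51.5. Of 4 tested, Acta2 was called higher on days 2 and 4, and Cspg4 was called lower on day 1 (-1.20, adjusted p 0.00713). The log2 fold changes of these 4 markers on day 1 ran from -2.57 to -0.11. No other marker of this list was called on any day. Melanocyte markers reached 39.5 CPM, Schwann cell markers 1.99 and skeletal muscle markers 5.16. The 6 fibroblast markers summed to 142930 to 182221 CPM in CTRL and 91629 to 118792 in EXP on day 1, 210582 to 231185 and 61019 to 127756 on day 2, and 171693 to 211058 and 53616 to 171221 on day 4. Pdgfra was called higher in EXP on each day, and Cd34 lower on day 1 (-1.74, adjusted p 8.10e-04) and day 2 (-2.07, adjusted p 0.00379). The part of these differences in the results on the 10 genes was not tested.

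Other genes of lipid metabolism were read from lists, each given by its counts and by the 2 genes with the smallest p. The counts are to be read against all tested genes, of which 13.9%, 7.72% and 12.8% were called higher and 14.7%, 5.71% and 9.66% lower on days 1, 2 and 4. Of 20 genes for cholesterol synthesis and uptake, the calls of higher RNA numbered 13, 17 and 15 in day order and those of lower RNA 0, with median log2 fold changes of 1.00, 1.97 and 1.36. Squalene epoxidase (Sqle) went from 8.91 ± 0.770 CPM (SD, n = 3) in CTRL to 113 ± 36.8 (SD, n = 3) in EXP on day 2 (3.66, SE 0.45, adjusted p 7.78e-05), with 1.73 on day 1 and 1.83 on day 4. Lanosterol demethylase (Cyp51) had 1.55, 2.96 and 1.40, all 6 of these values called. Without the 3 libraries with most adipocyte marker counts 8 genes of the list were called on day 4, within the low side of the split 6, and with the adipocyte covariate 3.

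Of 9 genes that control SREBPs, 2 rose and 1 fell on day 1, 2 rose and 2 fell at day 2, and 0 rose and 2 fell at day 4, a share near that of all genes on days 1 and 4. Srebf2, the cholesterol-directed factor, rose from 93.4 ± 18.1 CPM (SD, n = 4) to 176 ± 32.3 (SD, n = 5) on day 1 (0.91, SE 0.18, adjusted p 8.08e-04) and by 1.03 on day 2 (SE 0.22, adjusted p 0.00411). On day 4 it did not pass (0.26, SE 0.20, adjusted p 0.356). Mbtps1, the first protease that cuts SREBPs, fell on each day (-0.97, -0.83 and -0.68), from 251 ± 26.2 CPM (SD, n = 4) to 128 ± 15.9 (SD, n = 5) on day 1. Scaled by library totals its falls on days 2 (-0.35) and 4 (-0.35) did not pass.

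Of 11 genes that supply acetyl-CoA and NADPH or act beside Acaca and Fasn, 3 rose and 3 fell on day 1, 5 rose at day 2 and 4 at day 4, with medians of -0.73, 0.65 and 0.29, where the 10 genes had 0.46, 0.70 and 0.80. The NADPH-making enzymes of the pentose phosphate pathway were called higher on every day, Pgd with 1.08, 0.94 and 0.83 and G6pdx with 0.48, 1.04 and 0.76. Of 16 other elongation and desaturation genes, 8, 5 and 5 were higher, 1 lower on day 1 and 0 lower later, with medians of 0.77, 0.42 and 0.28. Hsd17b12, the ketoacyl reductase of the elongation cycle, rose on each day (1.14, 1.45 and 0.76). Hacd4, a dehydratase of that cycle, fell on day 1 from 21.2 ± 1.82 CPM (SD, n = 4) to 2.07 ± 1.57 (SD, n = 5; -3.36, SE 0.36, adjusted p 5.35e-06), and its values of -1.06 and 0.33 on days 2 and 4 did not pass. Without day 1 EXP replicate 2 and CTRL replicate 4, the setting chosen after seeing the data, 4 of these 16 were higher on day 1.

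Of 15 acyl-CoA synthetase and glycerolipid genes, 6, 3 and 4 were higher, with 1 lower on day 4, and the medians were 0.24, 0.13 and 0.07. Acsl4, known for activating arachidonic acid, rose on each day (1.17, 1.23 and 0.75), and Acsl1 on days 1 (0.67) and 4 (1.59, from 8.30 ± 1.19 CPM, SD, n = 4, to 25.1 ± 11.05, SD, n = 3). With the adipocyte marker score as a covariate the day 4 value of Acsl1 was 0.71 (adjusted p 0.121). Of 15 fatty acid oxidation genes, 4 fell on day 1 and 1 at day 2, while 4 rose at day 4, with 0 called in the other directions. The mitochondrial carnitine transferase Cpt2 fell on day 1 (-1.19, SE 0.21, adjusted p 3.24e-04), and the dehydrogenase Acadm on days 1 and 2 (-0.76 and -0.78). Without the 3 libraries with most adipocyte marker counts 2 oxidation genes were higher on day 4. Of 5 other targets of LXR, the sterol-sensing receptor known to act on Srebf1, only Mylip on day 2 passed (-1.11, SE 0.24, adjusted p 0.00438), while Pltp had -1.02, 0.31 and 0.35 without passing.

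**Figure D4:**
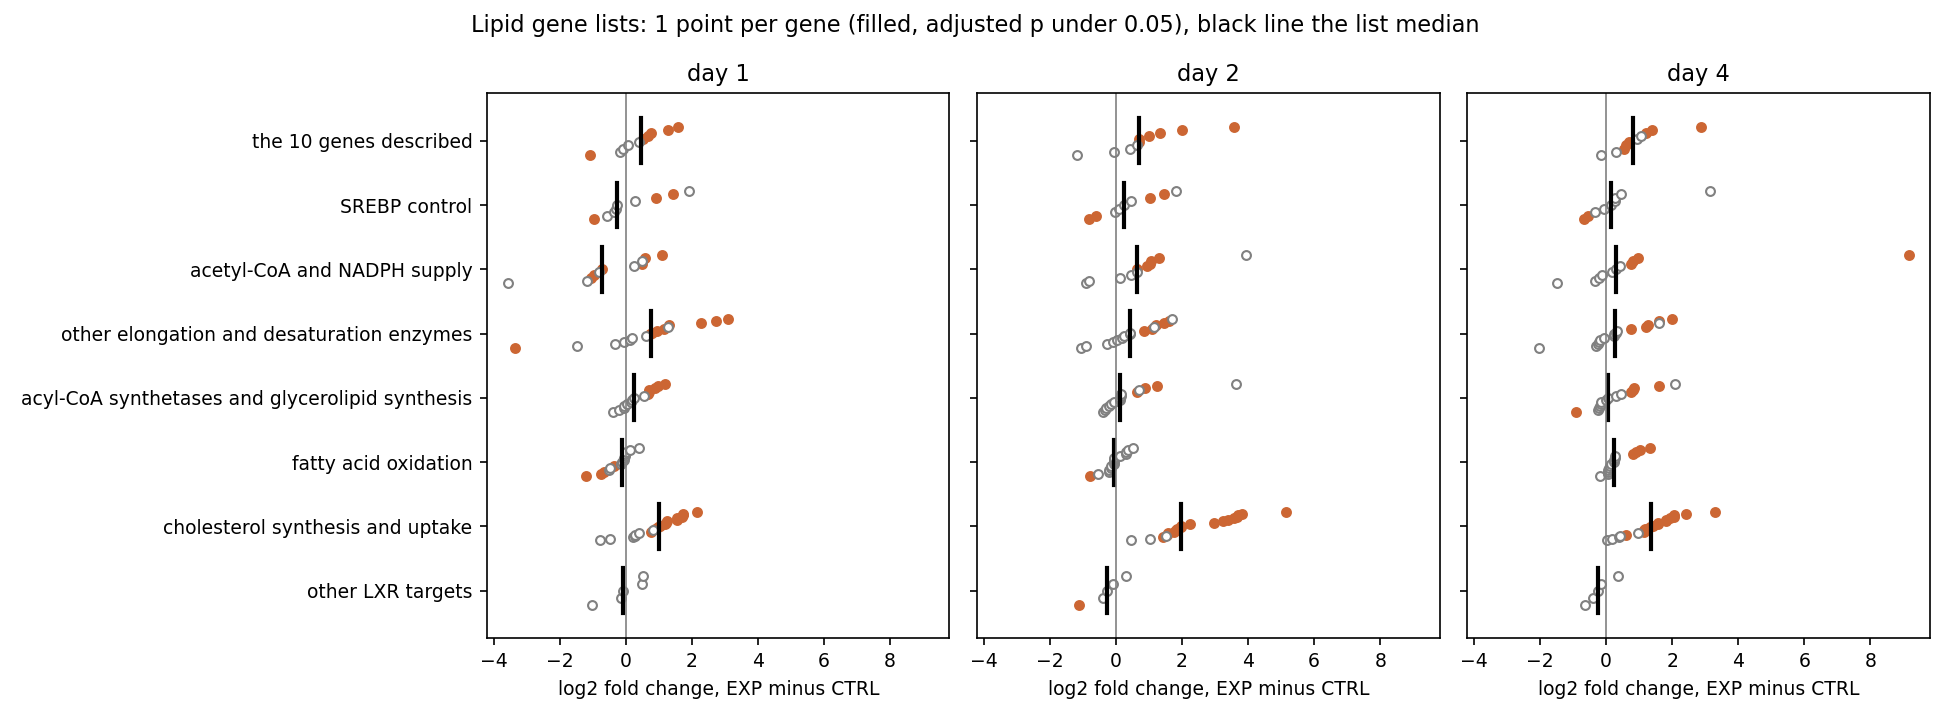
Log2 fold change of EXP over CTRL for the genes of each lipid list on days 1, 2 and 4. Each point is 1 gene, filled where the adjusted p is under 0.05, and the black line is the list's median. The cholesterol list has its median at 1.97 on day 2, against 0.70 for the 10 genes described, while oxidation and LXR target medians lie near 0.

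The 10 genes were also compared by how their log2 CPM varied together over the 22 libraries, which share groups, scaling and the differences between arms. Of 45 pairs, 33 had a positive Pearson correlation, with a median of 0.37 and a range of -0.50 to 0.93. After group means were removed, 30 were positive and the median was 0.27. Over the libraries Fads2 and Acly were most alike (0.93, and 0.58 within groups), followed by Acaca and Fasn (0.85, and 0.33 within groups). Within groups the order changed, with Scd2 and Fads2 (0.72) and Acly and Elovl5 (0.69) highest. Srebf1 had its highest correlation with another gene of the set at 0.15 (Fads1) and its lowest at -0.50 (Elovl5). Scd1 reached 0.22 at most, with Scd2.

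**Figure D5:**
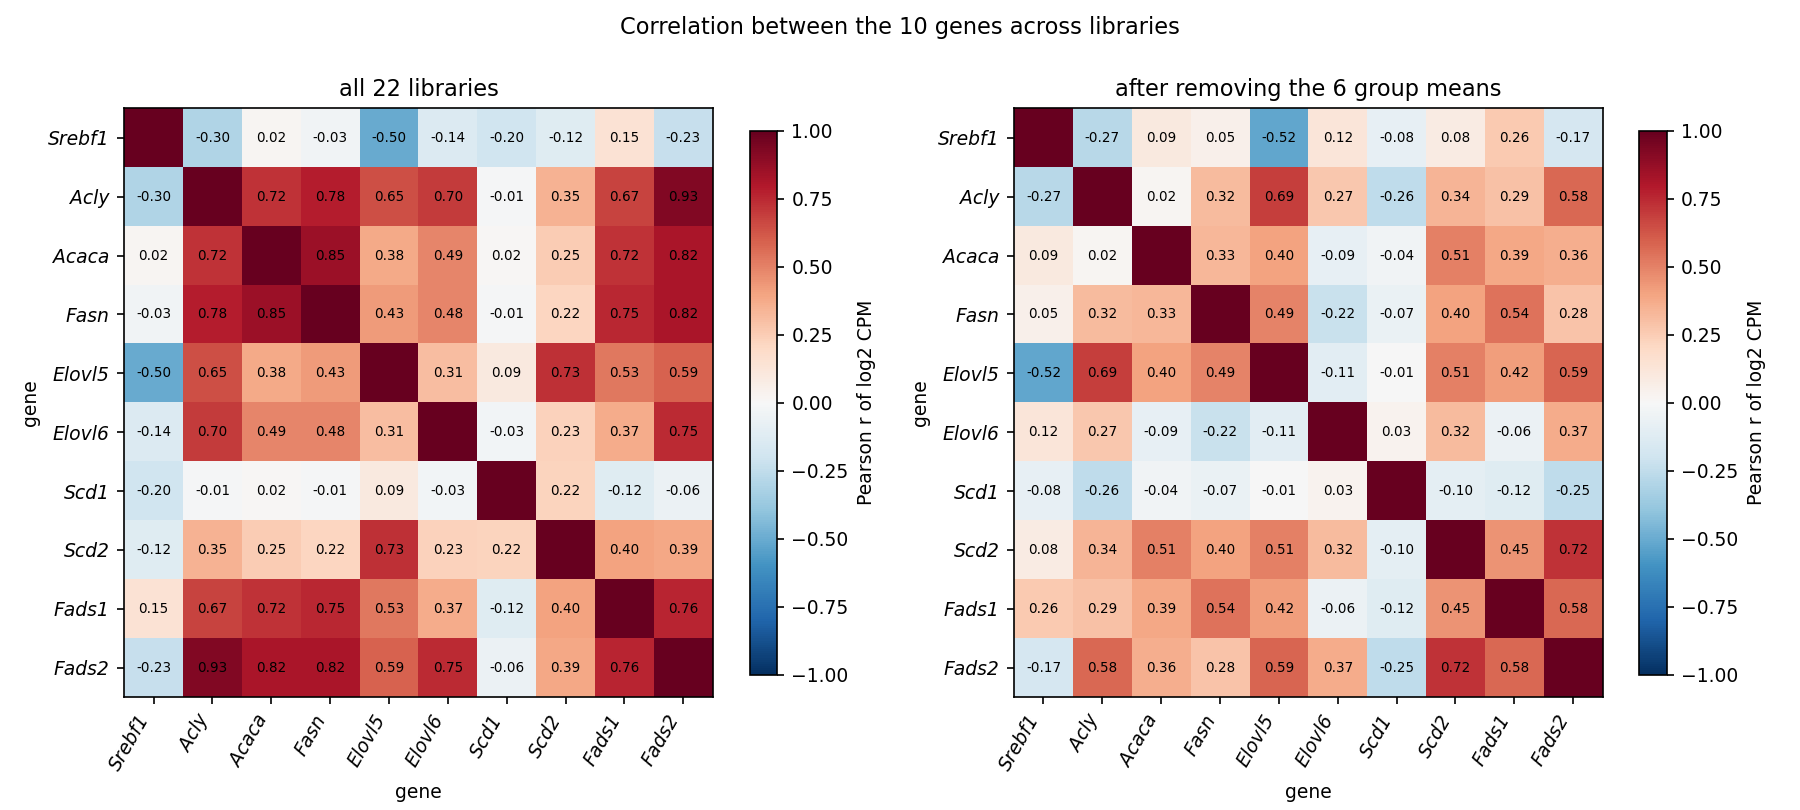
Pearson correlation of log2 CPM between the 10 genes over the 22 libraries (left) and after the 6 group means were removed (right), from -1 (blue) to 1 (red). Acly, Acaca, Fasn, Fads1 and Fads2 form the block with correlations of 0.67 to 0.93 on the left, while the row of Scd1 stays between -0.20 and 0.22.

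Over all tested genes, the named gene most like Fads2 was Lss (0.95), the lanosterol synthase of cholesterol synthesis. Acaca was most like Fdft1 (0.88), the squalene synthase, and Elovl6 most like Hmgcs1 (0.86), the cytosolic HMG-CoA synthase. Acly was most like Steap1 (0.95), Fasn like Tbcd (0.90, with a gene that has no symbol in the annotation at 0.91), Elovl5 like Plk1 (0.86), Scd2 like Fbxo17 (0.90), Fads1 like B4galt7 (0.81), Srebf1 like Slc15a2 (0.85) and Scd1 like Parvg (0.70). Within groups these correlations were 0.86 for Fads2 with Lss, 0.64 for Acaca with Fdft1 and 0.63 for Elovl6 with Hmgcs1. Of the 10 genes, 3 thus had a cholesterol synthesis gene as their nearest, a description of these libraries with no test.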

How the data were processed

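RNA was sequenced in 22 libraries of sorted mouse skin fibroblasts. The authors deposited 1 table of read counts per gene for all libraries, with 55414 genes, of which 52081 matched a symbol in GENCODE M21. Per the submitters' processing notes, reads were handled with Trimmomatic and the build mm39. The aligner, the counting tool and its strand setting are not given in the sources used here. All table columns belonged to these libraries.

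Counts were filtered with filterByExpr over the 6 groups (minimum count 10), scaled by TMM and fitted with edgeR's robust quasi-likelihood model (edgeR 4.0.16, limma 3.58.1, R 4.3.3), 1 mean per group over all 22 libraries. Each day compared EXP with CTRL, and effects were compared between days. p-values were adjusted by Benjamini-Hochberg over 17554 genes. The fit was tested on simulated data. CPM values carry a prior count of 2 only in correlations. Limits of detection of 3 counts cover counting error only. No replicates were similar enough to be counted as 1 library.

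All 10 genes are named, with the 2 genes of smallest p in each pathway list and the nearest gene by correlation. The members and lists were chosen with earlier results of these data known. Alternatives were library totals, DESeq2 1.42.0 as a test, its size factors in edgeR, quality-weighted limma voom, TMM without 3 collagen genes, no filter, a fit of the compared libraries only, the replicate number as a block, covariates for the library split and for adipocyte markers, fits within a side of the split, and leaving out libraries.

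RefSeq promoter sequences were of GRCm38.p6, another build than that of the files, so no coordinates of the counted genes are given. Overlaps with other genes came from GENCODE M21.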

Additional observations from a re-analysis of the deposited data

Results flagged for a closer look

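The log2 ratio of Scd1 to Scd2 per kilobase stood apart in replicate 2 of day 1 EXP, at 1.81 against -0.38 to 0.07 in the other 4 libraries of that group. That library had 128 CPM of Scd1 and the highest sebocyte marker sum of all libraries, 16.6 CPM. The part of these markers in the ratio was not tested.

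The log2 ratio of Fads2 to Fads1 stood apart in replicate 4 of day 4 CTRL, at -3.66 against -3.19 to -3.11 in the other 3 libraries. Of 39 groups of values tested for such a distant library, 2 were found, and chance gives 1.95.

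The effect of the expander on Scd2 differed between days (adjusted p 0.0189 in edgeR's joint test), the log2 fold changes being -1.07, 0.64 and 1.19 in day order. Without day 4 EXP replicate 2 it did not pass.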

How the results depend on the processing

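Of 10 genes, 6, 6 and 6 were called between the arms on days 1, 2 and 4. On day 1 there were 3 calls with no filter on low counts and 3 within the high side of the library split. On day 2 there were 3 without the 3 libraries with most adipocyte marker counts (marker-rich libraries). On day 4 there were 3 with no filter, 2 in a fit of the compared libraries only, 2 with the replicate block, 3 with the split as a covariate, 2 with the adipocyte marker covariate, 2 within the low side, and 2 without the 3 marker-rich libraries. Leaving out 1 library gave 4 to 6 calls on day 1, 3 to 5 on day 2 (3 without EXP replicate 1) and 2 to 7 on day 4 (2 without CTRL replicate 4 or EXP replicate 1, 3 without EXP replicate 2). For an effect that differs between days, 1 gene passed; DESeq2 gave 4, library totals 2, voom 2, the split covariate 2, and 0 came from no filter, the replicate block, the adipocyte covariate and the fit without day 1 EXP replicate 2 and CTRL replicate 4. Leaving out 1 library gave 0 to 4 (0 without day 4 EXP replicate 2, 4 without day 4 EXP replicate 3). For the day 2 against the day 1 effect, 0 passed, DESeq2 gave 2, library totals 1, the compared libraries only 1, the split covariate 2, and leaving out 1 library 0 to 1. Within EXP 2 changed over days; DESeq2 gave 5, library totals 1, no filter 1, the compared libraries only 1, the split covariate 1, the fit without marker-rich libraries 1, the replicate block 0, the adipocyte covariate 0, and leaving out 1 library 1 to 4. The cause of these differences was not tested.

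Replicate numbers are shared between arms, but correlations of deviations between libraries of the same number (0.164, -0.015, -0.066 and 0.097 on day 1, -0.062, -0.003 and -0.007 on day 2, 0.080, 0.146 and 0.109 on day 4) did not all exceed 0.1, so the numbers were not used as pairs. With the replicate block, Acly (1.33, adjusted p 0.00556) and Fads2 (2.49, adjusted p 0.00826) were the genes called on day 4.

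Directions turned for differences that had not passed. Srebf1 turned on day 1 with library totals (0.10), the adipocyte covariate (0.065) and without EXP replicate 2 and CTRL replicate 4 together (0.081), and ran from -0.17 to 0.013 when 1 library was left out (0.013 without CTRL replicate 4), on day 2 with totals (0.43), and on day 4 with totals (0.11), voom (0.028) and the low side (0.29), and ran from -0.36 to 0.065 when 1 library was left out (above 0 without CTRL replicate 3 or EXP replicate 1). Elovl5 on day 1 gave 0.028 with totals, and Fads1 on day 1 ran from -0.065 to 0.26 when 1 library was left out (below 0 without CTRL replicate 1 or 3). Scd1 on day 4 gave -0.15 with the adipocyte covariate and -0.38 without the marker-rich libraries. Mylip on day 1 gave 0.047 with totals. Srebf2 on day 4 gave -0.28 with the adipocyte covariate and -0.16 without the marker-rich libraries, where Acadm gave -0.055. Pltp gave -0.21 on day 2 with the adipocyte covariate, and on day 4 -0.013 with the replicate block, -1.13 with that covariate, -0.024 in the low side, -1.70 without the marker-rich libraries, and -0.36 to 0.81 when 1 library was left out (-0.36 without EXP replicate 2).

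The lowest count of any of the 10 genes in a library was 43, for Elovl6, above the limit of 3 counts. Over all genes the calls (5017, 2359 and 3943 on days 1, 2 and 4) moved by over 1.5 times on day 1 within the high side (2257), on day 2 with totals (4632), voom (4567) and without marker-rich libraries (1365), and on day 4 with the compared libraries only (1128), the adipocyte covariate (1831) and the low side (1083). For the joint test over all genes the 1549 calls became 2606 with DESeq2, 401 with the replicate block and 679 with the adipocyte covariate. The 2502 calls of a change within EXP became 1267 with the compared libraries only, 29 with the replicate block and 994 with the adipocyte covariate. The joint test uses all libraries and could not be run on compared libraries only.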

Other observations

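Malic enzyme (Me1), a cytosolic source of NADPH, was called higher in EXP on each day, with log2 fold changes of 0.57, 1.05 and 0.96 in edgeR's test. Fads3, a desaturase of the same gene family as Fads1 and Fads2, was called higher on each day as well (1.30, 1.61 and 1.20). Insig1, which holds SREBPs in the endoplasmic reticulum, was higher on days 1 and 2 (1.44 and 1.46). Acss2, which makes acetyl-CoA from acetate, was lower on day 1 (-0.98). These genes belong to the pathway lists but not to those chosen by smallest p, and they were picked after their values were seen.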
